A study of Mus musculus with 12 samples.

Results

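The 4 Hox clusters of the mouse were followed through muscle stem cells (MuSCs), the stem cells of skeletal muscle, and the myoblasts that arise from them in culture. Members were all genes whose symbol begins with Hoxa, Hoxb, Hoxc or Hoxd, named antisense transcripts included. Of the 17505 genes listed in either expression table, 29 were members, and 23 of them were listed in both tables. The culture table listed 25 Hox genes among 16503 genes, and 27 were among the 16169 genes of the genotype table.

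Hox genes encode homeodomain transcription factors that lie side by side in clusters. A low paralog number marks genes at the end of a cluster used first and towards the head, and a high number marks those used later and towards the tail and the tips of the limbs. Adult connective tissue and muscle cells are known to keep part of the Hox pattern of the place where they formed. In the limb, paralogs 9 and 10 pattern the upper segment, paralogs 11 the middle segment and paralogs 13 the hand or foot.

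All mice had a C57BL/6 background, and MuSCs were sorted from hindlimb muscle as cells positive for ITGA7 and negative for CD31, CD45, CD11b and SCA1. For the culture comparison, 3 WT mice each gave 1 library of freshly sorted MuSCs and 1 library of primary myoblasts grown for 3 days in serum and bFGF (replicates 04, 05 and 06 in both groups). Primary myoblasts of the study came from male mice, and no single age is given for the mice of this comparison in the sources used here. For the genotype comparison, the MuSCs of 3 WT mice and of 3 Nedd4L-cKO mice were used, all of them males of 5 to 6 weeks (replicates 01, 02 and 03 in both groups, from 6 different mice). Nedd4L-cKO mice are Nedd4L fl/fl Pax7 cre/+, so the gene of the E3 ubiquitin ligase Nedd4L is set to lose exon 15 in cells that express Pax7, and Cre stands in 1 copy of Pax7. The alleles carried by the WT mice of that comparison are not given in the sources used here. Libraries were prepared from 1000 cells each by SMART-seq, a method in which whole cDNA molecules are amplified.

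Values are in RPM, the deposited normalized counts scaled with 1 factor per table to an average library of 1000000, and a log2 fold change is a difference of log2(RPM + 1), which understates the change of genes near 0. A gene was tested, with limma, when 3 or more libraries held 10 or more of its normalized counts. The fit ran across the whole table, and genes were called at a Benjamini-Hochberg adjusted p of at most 0.05. Both tables were normalized separately, so levels are set side by side between them but tested only within each. Normalized counts summed to between 33189802 and 37595659 per library in the culture table and between 40323468 and 50687122 in the genotype table. Read depth is unknown. Nedd4l itself was at 66.7 to 96.4 RPM in the WT and at 22.5 to 36.3 RPM in the Nedd4L-cKO libraries of the genotype table, values that cover the whole gene and not exon 15 alone.

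The Hoxa cluster spans 105.3 kb of chromosome 6 (52132570 to 52237822, GRCm39), Hoxb 174.0 kb of chromosome 11 (96085106 to 96259082), Hoxc 115.7 kb of chromosome 15 (102829538 to 102945278) and Hoxd 96.83 kb of chromosome 2 (74498654 to 74595486). GENCODE M39 places 39 coding Hox genes and 6 named antisense transcripts there. None of the antisense transcripts was listed in either table, in which lncRNAs made up 0.200% and 0.241% of the genes. All 11 coding Hoxa genes were listed in both tables. Hoxc had 8 of 9 listed in the culture table and 7 in the genotype table, and Hoxd 4 and 6 of 9. Of the 10 coding Hoxb genes, the culture table listed only Hoxb1 and Hoxb2, and the genotype table added Hoxb3. In each table, 22 Hox genes passed the filter on low values.

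The genes from Hoxa9 to Hoxa13 are next to each other on the minus strand of chromosome 6, and in the results below Hoxa9 was lower and Hoxa11 and Hoxa13 were higher in myoblasts. The 250 bases before their RefSeq transcription starts are shown for that reason, as RefSeq gives them on GRCm38.p6, read 5′ to 3′ on the minus strand. Hoxa13 could be called only higher, since it passed the filter on low values through the myoblast libraries alone, and the call of Hoxa9 was lost without some single libraries. Hoxa10 has 2 annotated starts. Capitals mark a match to TATAAA, the core of the TATA box, on either strand.
Hoxa9, chr6:52227371-52227620: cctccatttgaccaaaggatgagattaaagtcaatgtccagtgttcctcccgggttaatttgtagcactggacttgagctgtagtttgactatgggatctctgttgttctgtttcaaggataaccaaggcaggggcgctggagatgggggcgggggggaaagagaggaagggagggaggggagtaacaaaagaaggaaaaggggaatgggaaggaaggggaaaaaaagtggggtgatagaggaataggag
Hoxa10, chr6:52234940-52235189: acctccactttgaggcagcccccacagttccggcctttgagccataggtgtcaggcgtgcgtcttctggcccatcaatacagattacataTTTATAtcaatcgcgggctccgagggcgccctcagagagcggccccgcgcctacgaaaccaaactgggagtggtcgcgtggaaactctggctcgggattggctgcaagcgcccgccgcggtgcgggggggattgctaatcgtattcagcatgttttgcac
Hoxa10, chr6:52240855-52241104: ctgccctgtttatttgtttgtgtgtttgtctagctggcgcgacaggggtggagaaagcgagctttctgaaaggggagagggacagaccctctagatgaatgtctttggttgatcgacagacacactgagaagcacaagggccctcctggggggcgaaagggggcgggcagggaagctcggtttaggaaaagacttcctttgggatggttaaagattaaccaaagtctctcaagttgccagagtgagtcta
Hoxa11, chr6:52245811-52246060: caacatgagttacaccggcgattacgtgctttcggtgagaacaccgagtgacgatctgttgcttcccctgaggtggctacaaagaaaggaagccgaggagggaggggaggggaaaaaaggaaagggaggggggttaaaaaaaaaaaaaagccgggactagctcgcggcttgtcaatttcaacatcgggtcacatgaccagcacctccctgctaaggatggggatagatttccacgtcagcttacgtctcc
Hoxa13, chr6:52260881-52261130: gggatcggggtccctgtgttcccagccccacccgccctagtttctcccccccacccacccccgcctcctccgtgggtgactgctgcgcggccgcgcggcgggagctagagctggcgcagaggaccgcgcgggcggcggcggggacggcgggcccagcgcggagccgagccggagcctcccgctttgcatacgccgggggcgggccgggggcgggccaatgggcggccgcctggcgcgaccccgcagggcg
Of these 5 windows, only that of Hoxa10 at 52234940 holds a match, 160 bases before the start. GC content was 49.6% for Hoxa9, 59.2% and 51.6% for the Hoxa10 windows in the order shown, 52.0% for Hoxa11 and 80.0% for Hoxa13. The Hoxa13 window holds 35 CpG dinucleotides and the Hoxa9 window 3. The RefSeq table had an entry for 18 of the 29 members, with 20 starts, and none for some of the others, among them Hoxa4, Hoxb2, Hoxb3, Hoxc5, Hoxc6, Hoxc8, Hoxc9, Hoxc10, Hoxc11 and Hoxc13. TATAAA was found in 3 of these 20 windows (Hoxa10, Hoxd4 and Hoxd13) and in 12.4% of all 32851 windows in the table. TGATNNAT, a motif of the kind that HOX proteins bind together with PBX partners, was found in 3 (Hoxa2, Hoxb1 and Hoxd11) and in 7.68% of all windows. The median number of CpG dinucleotides was 12.5 in the Hox windows and 6 in all windows.

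In freshly sorted WT MuSCs, Hox expression was concentrated in the Hoxa and Hoxc clusters and in high paralog numbers. Summed over its listed genes, Hoxa was at 130.8 ± 26.9 RPM (SD, n = 3) and Hoxc at 103.9 ± 8.65 RPM, against 8.09 ± 3.799 RPM for Hoxd and 1.46 ± 0.810 RPM for Hoxb. Paralogs 9 to 13 made up 74.5% of all Hox RPM, paralogs 4 to 8 made up 23.9% and paralogs 1 to 3 made up 1.60%. The WT MuSCs of the genotype table gave 84.0 ± 15.3 RPM for Hoxa and 86.0 ± 18.0 RPM for Hoxc, with 73.3% in paralogs 9 to 13. Hoxd8 was the highest Hoxd gene in the MuSCs of both tables. Without it, the Hoxd sum was 0.962 RPM in the culture table and, in the WT MuSCs of the genotype table, 2.32 of 9.88 RPM.

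**Figure D1:**
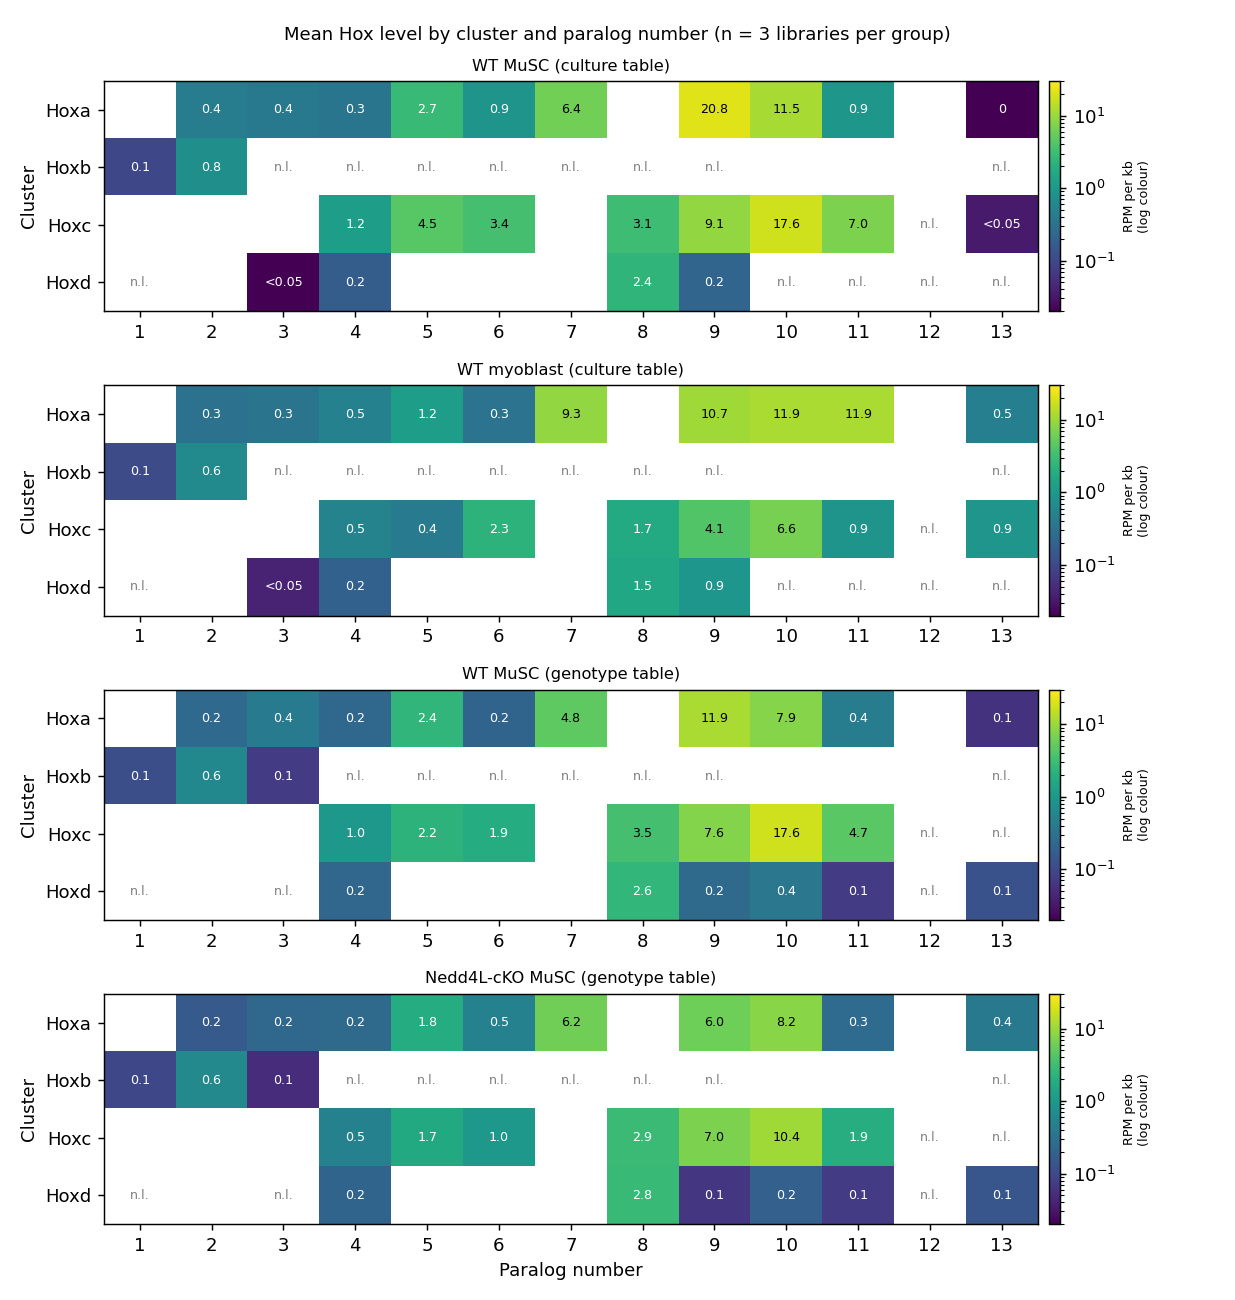
Mean level of listed Hox genes in RPM per kilobase of exon (log colour scale, values printed) by cluster (rows) and paralog number (columns) in the 4 groups, with n.l. for an annotated gene that the table does not list and an empty cell where the mouse has no such gene or none is shown. In all groups the levels above 4 RPM per kb lie in the Hoxa and Hoxc rows between paralogs 5 and 11.

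To compare genes with each other, RPM was divided by the length of the union of exons. Hoxa9 was highest in WT MuSCs at 20.8 RPM per kb (16.4 to 25.6 over the 3 libraries) and its range overlapped that of Hoxc10 (17.6, from 15.3 to 20.9). Hoxa10 followed at 11.5 RPM per kb (9.14 to 14.6), below every library of Hoxc10. After it, each gene overlapped its neighbour in the order, which ran through Hoxc9 (9.06 RPM per kb), Hoxc11 (7.01), Hoxa7 (6.36), Hoxc5 (4.51), Hoxc6 (3.43), Hoxc8 (3.10), Hoxa5 (2.75), Hoxd8 (2.42) and Hoxc4 (1.22). The remaining 13 listed genes were below 1 RPM per kb. The 6 highest genes of the genotype table's WT MuSCs were the same 6, led by Hoxc10 (17.6 RPM per kb) and Hoxa9 (11.9). With coding length in place of exon length, 5 of the 6 stayed among the highest.

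Before the comparison with myoblasts, the cell types in the libraries were checked with marker lists. Of 9 MuSC markers, 7 were lower in myoblasts, and their summed level was 5646 to 8223 RPM in MuSC and 788 to 880 RPM in myoblast libraries. Pax7, the transcription factor that defines MuSCs, went from 185.9 to 19.3 RPM (limma adjusted p = 2.36e-05). Of 6 genes of activated or differentiating myoblasts, 4 were higher in myoblasts and 0 lower (22.2% and 20.6% of all tested genes). Their sums were 1340 to 1646 RPM in MuSC and 6874 to 8829 RPM in myoblast libraries. The 6 myofiber genes, among them Acta1 and Ckm, summed to 120.5 to 346.4 RPM in MuSC and to 8628 to 19720 RPM in myoblast libraries. Of these, 5 were called higher, with Acta1 going from 177.1 to 10120 RPM, and Myh4 was not called (3.25 to 1.13 RPM). The fibro-adipogenic progenitor list, all 7 of whose genes were listed, summed to 749 to 895 RPM in MuSCs and to 9.64 to 31.2 RPM in myoblasts, where Dpt was listed at 0. Of its 6 tested genes, 4 were lower in myoblasts, namely Dpt (459.8 RPM in MuSCs), Cd34 (246.7 to 16.96 RPM, also a MuSC marker), Col1a1 (80.55 to 0.320 RPM) and Dcn (23.9 to 0.311 RPM). Ly6a, which encodes the SCA1 used to sort these cells out, was higher (0.152 to 1.94 RPM), and Pdgfra, which defines them, was at 1.19 and 1.33 RPM. Dpt, at 0 in every myoblast library, could pass the filter on low values only through the MuSC libraries and so be called only lower. Dcn (0.0144 to 0.702 RPM in myoblasts) and Col1a1 (0.223 to 0.400 RPM) also needed MuSC libraries to pass it. Ly6a (0 to 0.428 RPM in MuSCs) needed myoblast libraries. Of 4 mural cell genes 0 were called, although their sums did not overlap (1088 to 1399 RPM in MuSCs, 1633 to 2410 RPM in myoblasts). Acta2 made up most of these sums (means of 1267 and 1894 RPM), and the means of Rgs5, Myh11 and Pdgfrb were at most 13.5 RPM. Of 2 tenocyte genes 1, Scx, was higher (sums of 10.9 to 11.5 and 23.1 to 106.8 RPM). Endothelial (2 of 5 listed) and haematopoietic (3 of 6 listed) genes summed to at most 16.3 and 4.31 RPM in any library. The part of these shifts in the Hox differences was not tested. In bulk libraries, fewer cells of a type and less RNA per cell cannot be told apart. Replicate 04 stood apart among the myoblast libraries, with correlations of 0.951 and 0.949 with the others against 0.988 between them.

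After 3 days in culture, 5 of 8 Hoxc genes were lower and Hoxa11 was higher. Of the 22 Hox genes tested, 10 were called (45.5%), 6 of them lower and 4 higher in myoblasts, where 42.8% of all 15345 tested genes were called (20.6% lower and 22.2% higher). The share of Hox genes called was therefore near that of all genes. Of the 4 higher genes, Hoxa13 and Hoxc13 passed the filter only through the myoblast libraries, so they could be called in that direction alone. At an unadjusted p under 0.05 there were 11 Hox genes, against 51.5% of all genes. Of the 22, 14 had a log2 fold change below 0 (48.3% of all genes). Libraries of the groups did not overlap for 15 of them, 10 lower and 5 higher, where 55.2% of all genes showed this (26.8% lower and 28.4% higher). By cluster, 6 of 8 Hoxc genes were called (5 lower, 1 higher), 3 of 10 Hoxa genes (1 lower, 2 higher), 1 of 3 Hoxd genes (higher) and 0 of 1 Hoxb gene. The median log2 fold change was -0.96 over the Hoxc genes and -0.010 over the Hoxa genes, against 0.039 over all genes tested. The count of 10 fell to 6 without MuSC replicate 05 or without myoblast replicate 05, and to 5 without myoblast replicate 06. The count of 4 higher genes fell to 2 without any 1 MuSC library or without myoblast replicate 05, and to 1 without myoblast replicate 04 or 06.

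**Figure D2:**
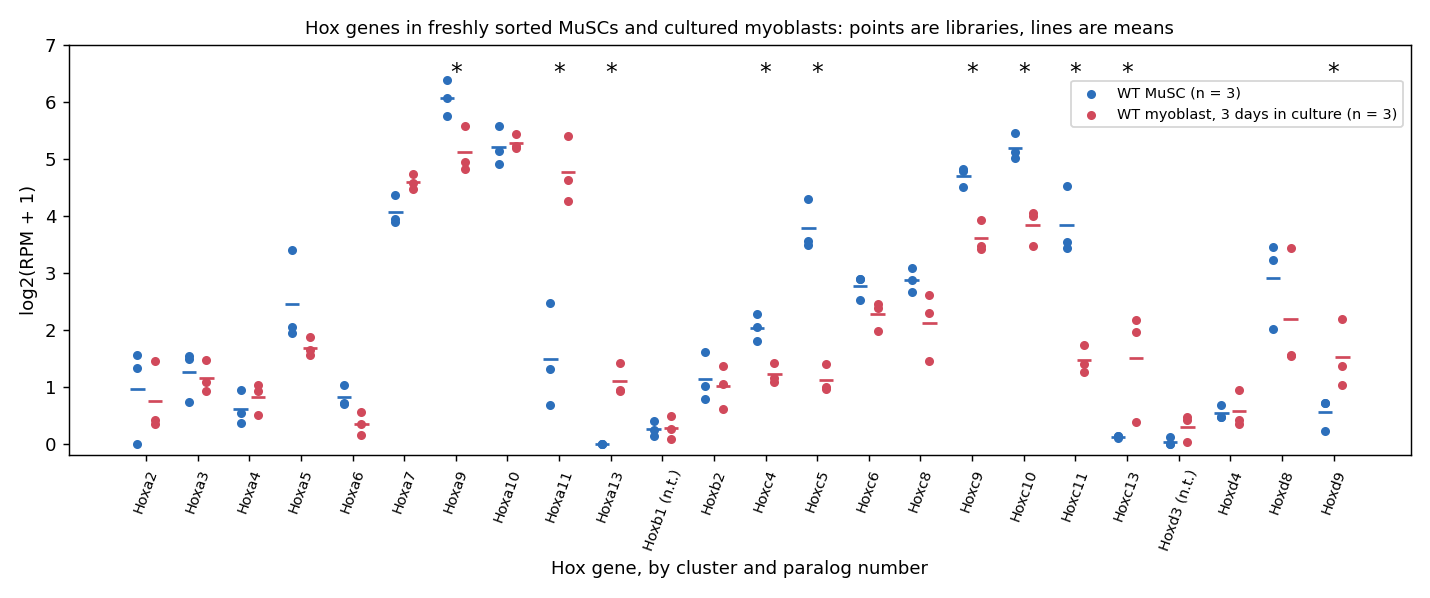
Level of listed Hox genes as log2(RPM + 1) in the 3 MuSC and 3 myoblast libraries, with points for libraries, lines for means, an asterisk for genes called by limma (adjusted p of at most 0.05) and n.t. for genes that did not pass the filter. The MuSC and myoblast points of Hoxa11, Hoxc5 and Hoxc11 lie apart, and those of Hoxa10 between them overlap.

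The largest fall on the log2(RPM + 1) scale was that of Hoxc5 (ENSMUSG00000022485, chromosome 15, 102875878 to 102925861), a gene of the neck and forelimb region of the body axis. It was at 10.3, 18.5 and 10.8 RPM in MuSC replicates 04, 05 and 06 and at 1.64, 0.935 and 1.00 RPM in the myoblasts of the same mice. The lowest MuSC library was thus far above the highest myoblast library, and the myoblast mean was 0.0904 times the MuSC mean (log2 fold change -2.66, SE 0.35, limma adjusted p = 0.000419). The annotated span of Hoxc5 begins within that of Hoxc10 and runs across Hoxc9, Hoxc8 and Hoxc6, although 0.0% of its exon bases are shared with other genes.
Hoxc11 (ENSMUSG00000001656, chromosome 15, 102862862 to 102866143), whose paralog group patterns the middle limb segment, was at 22.1, 10.6 and 9.82 RPM in MuSCs and at 1.64, 2.33 and 1.39 RPM in myoblasts. All myoblast libraries were below all MuSC libraries, and MuSC replicate 04 was the highest (log2 fold change -2.37, SE 0.38, limma adjusted p = 0.00133).
Hoxc10 (ENSMUSG00000022484, chromosome 15, 102875134 to 102880330), a lumbar and hindlimb gene and the highest of its cluster, was at 42.8, 31.3 and 33.7 RPM in MuSCs and at 10.1, 15.6 and 15.02 RPM in myoblasts. The groups did not overlap (log2 fold change -1.35, SE 0.28, limma adjusted p = 0.00427).
Hoxc9 (ENSMUSG00000036139, chromosome 15, 102884117 to 102893531), known for setting thoracic identity in motor neurons, was at 21.8, 26.4 and 27.3 RPM in MuSCs and at 14.2, 9.99 and 9.71 RPM in myoblasts. Its groups did not overlap either (log2 fold change -1.10, SE 0.28, limma adjusted p = 0.0115). Of its exon bases, 13.3% lie opposite exons of the lncRNA Gm36878, and the library preparation does not mark strand, so reads of such pairs cannot be told apart.
Positions are on GRCm39. These 4 genes kept the call in every alternative that was tried.

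Hoxc4 (ENSMUSG00000075394, chromosome 15, 102927366 to 102945278), at the far end of the cluster from Hoxc13, was at 2.47, 3.11 and 3.82 RPM in MuSCs and at 1.67, 1.13 and 1.23 RPM in myoblasts. The groups did not overlap, but the call was at the threshold (log2 fold change -0.81, SE 0.29, limma adjusted p = 0.0472) and was lost when the mouse was added as a replicate block (limma adjusted p = 0.0826). It was also lost without MuSC replicate 05 or 06 or myoblast replicate 05 or 06 (limma adjusted p from 0.0913 to 0.156), and in 11 of 16 alternatives in all.
Hoxc6 (5.82 to 3.87 RPM, log2 fold change -0.49) and Hoxc8 (6.37 to 3.58 RPM, log2 fold change -0.75), which act in the trunk, were not called, although their groups did not overlap. In all, 7 of 8 Hoxc genes had myoblast libraries below all MuSC libraries, a pattern seen in 26.8% of all tested genes.
The exception was Hoxc13 (ENSMUSG00000001655, chromosome 15, 102829538 to 102837249), known for its part in hair and nail formation, at 0.0917, 0.0969 and 0.0648 RPM in MuSCs and at 0.297, 2.86 and 3.52 RPM in myoblasts. Myoblast replicate 04 was much lower than the other two, and the gene had 10 or more normalized counts in the myoblast libraries only, so it could pass the filter only by being higher there (log2 fold change 1.38, limma adjusted p = 0.0277). Its call was lost without any 1 of the MuSC libraries (limma adjusted p from 0.0642 to 0.0726) and could not be tested without a myoblast library.

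**Figure D3:**
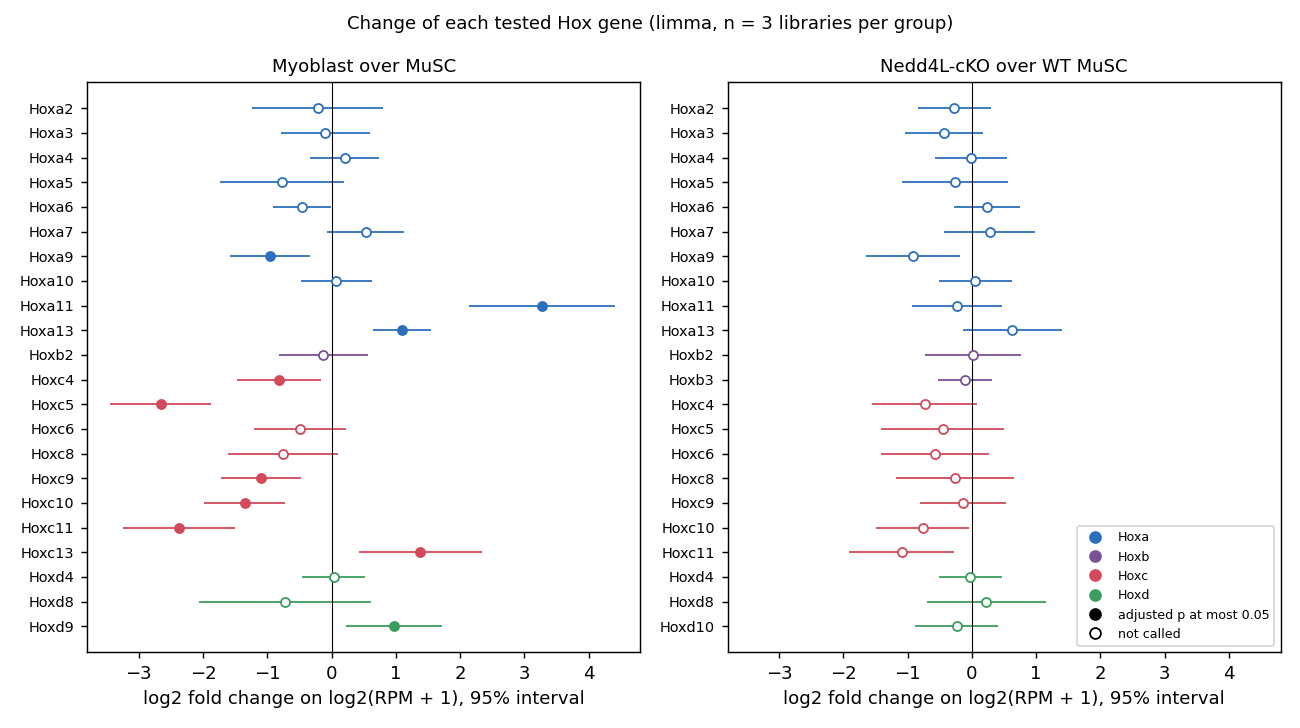
Log2 fold change of log2(RPM + 1) with its 95% confidence interval for the 22 tested Hox genes in each comparison (3 libraries per group, limma), coloured by cluster, with filled points for genes called. On the left, 7 of 8 Hoxc genes lie below 0 and Hoxa11 lies highest at 3.28 on this scale. On the right, no point is filled.

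Within the Hoxa cluster, genes were called in both directions. Hoxa9 (ENSMUSG00000038227, chromosome 6, 52200080 to 52208069), known for its part in blood stem cells as well as in the limb, was at 82.6, 66.1 and 52.8 RPM in MuSCs and at 46.3, 27.4 and 29.7 RPM in myoblasts. All myoblast libraries lay below all MuSC libraries (log2 fold change -0.96, SE 0.27, limma adjusted p = 0.0207), and the call was lost without MuSC replicate 04 or 05 or myoblast replicate 05 or 06 (limma adjusted p from 0.0608 to 0.0781).
Hoxa10 (ENSMUSG00000000938, chromosome 6, 52208164 to 52217834), its neighbour, was at 34.1, 46.4 and 29.0 RPM in MuSCs and at 41.9, 35.6 and 36.3 RPM in myoblasts. The groups overlapped, and the 95% interval of the log2 fold change of 0.08 ran from -0.48 to 0.63. Exons of the lncRNA Gm52902 lie opposite 19.8% of the exon bases of Hoxa10.
Hoxa11 (ENSMUSG00000038210, chromosome 6, 52219074 to 52222806), the next gene and a regulator of the middle limb segment, was at 4.52, 0.591 and 1.49 RPM in MuSCs and at 41.4, 23.6 and 18.1 RPM in myoblasts. Every myoblast library was above every MuSC library, and MuSC replicate 04 was the highest of its group (log2 fold change 3.28, SE 0.50, limma adjusted p = 0.00102). The mean was 12.6 times higher in myoblasts, a ratio that depends on that library, without which the MuSC mean was 1.04 RPM and the ratio 26.6.
The call of Hoxa11 held in every alternative, with log2 fold changes from 2.87 to 3.93. Of its exon bases, 34.8% lie opposite exons of the antisense transcript Hoxa11os, which neither table lists, so the reads behind this rise cannot be assigned to 1 strand.

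Hoxa13 (ENSMUSG00000038203, chromosome 6, 52234602 to 52237822), at the end of the cluster and a gene of the hand and foot, was listed at 0 in all MuSC libraries and was at 1.68, 0.930 and 0.893 RPM in myoblasts. It had 10 or more normalized counts in the 3 myoblast libraries only, so it too could pass the filter only by being higher there (limma adjusted p = 0.00255).
Hoxa7, which acts in the trunk, was at 19.6, 14.3 and 13.8 RPM in MuSCs and at 25.5, 21.1 and 22.8 RPM in myoblasts. The groups did not overlap, but the gene was not called (log2 fold change 0.53, 95% interval -0.06 to 1.13, limma adjusted p = 0.133). Exons of Hoxaas3 lie opposite 23.2% of its exon bases.
The remaining Hoxa genes were low in both groups, with means up to 5.15 RPM, and were not called. Among them, Hoxa5 (5.15 to 2.23 RPM) and Hoxa6 (0.764 to 0.285 RPM) had myoblast libraries below all MuSC libraries, and Hoxa2 (1.15 to 0.786 RPM), Hoxa3 (1.46 to 1.26 RPM) and Hoxa4 (0.554 to 0.784 RPM) overlapped. Hoxa6 had 10 or more normalized counts in 3 MuSC libraries but only 1 myoblast library, so it passed the filter mainly through the group where it was higher.

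In the Hoxd cluster, Hoxd8 was at 8.36, 9.97 and 3.06 RPM in MuSCs and at 9.82, 1.96 and 1.90 RPM in myoblasts. Myoblast replicate 04 was at the level of the MuSCs and the others below them, and the gene was not called (log2 fold change -0.72, limma adjusted p = 0.351). Without that library it was called (log2 fold change -1.35, limma adjusted p = 0.0413).
Hoxd9 (ENSMUSG00000043342, chromosome 2, 74528008 to 74530552) was at 0.642, 0.646 and 0.162 RPM in MuSCs and at 3.53, 1.04 and 1.56 RPM in myoblasts. The groups did not overlap (log2 fold change 0.97, SE 0.33, limma adjusted p = 0.0409), and the call was lost without any 1 MuSC library or without myoblast replicate 04 or 06 (limma adjusted p from 0.0627 to 0.133). In all, the call was lost in 6 of 15 alternatives.
Hoxd4 was at 0.451 RPM in MuSCs and 0.505 RPM in myoblasts and was not called. It shares 44.7% of its exon bases with the overlapping coding gene Gm28230, so its level is uncertain. Hoxd3 was at most 0.375 RPM and was not tested.
Hoxb2 was at 2.04, 1.02 and 0.717 RPM in MuSCs and at 0.518, 1.07 and 1.57 RPM in myoblasts, and Hoxb1, which was not tested, at 0.324, 0.187 and 0.0938 RPM and at 0.402, 0.0642 and 0.191 RPM. Neither Hoxb gene showed groups that were apart, and 58.5% of the exon bases of Hoxb2 lie opposite exons of Hoxb3os.

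Summed over each cluster, myoblasts had less Hoxc RNA than MuSCs, while Hoxa levels overlapped. The summed Hoxc level was 113.4, 101.8 and 96.4 RPM in the MuSC libraries and 34.3, 41.2 and 41.2 RPM in the myoblast libraries. The summed Hoxa level was 155.2, 135.4 and 101.9 RPM in MuSCs and 163.7, 116.5 and 116.4 RPM in myoblasts, which overlapped. Hoxc thus made up 42.9% (40.4% to 47.5%) of all Hox RPM in MuSCs and 22.2% (at most 25.4%) in myoblasts, and Hoxa 53.3% and 73.2%. These sums describe the members and were not tested.
Per kilobase, 4 Hoxa genes led in myoblasts, namely Hoxa11 (11.95 RPM per kb, from 7.80 to 17.9), Hoxa10 (11.95), Hoxa9 (10.7) and Hoxa7 (9.28), and the range of each overlapped that of the next. Hoxc10 came next at 6.63 RPM per kb (4.94 to 7.60), below every library of these 4 genes.

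**Figure D4:**
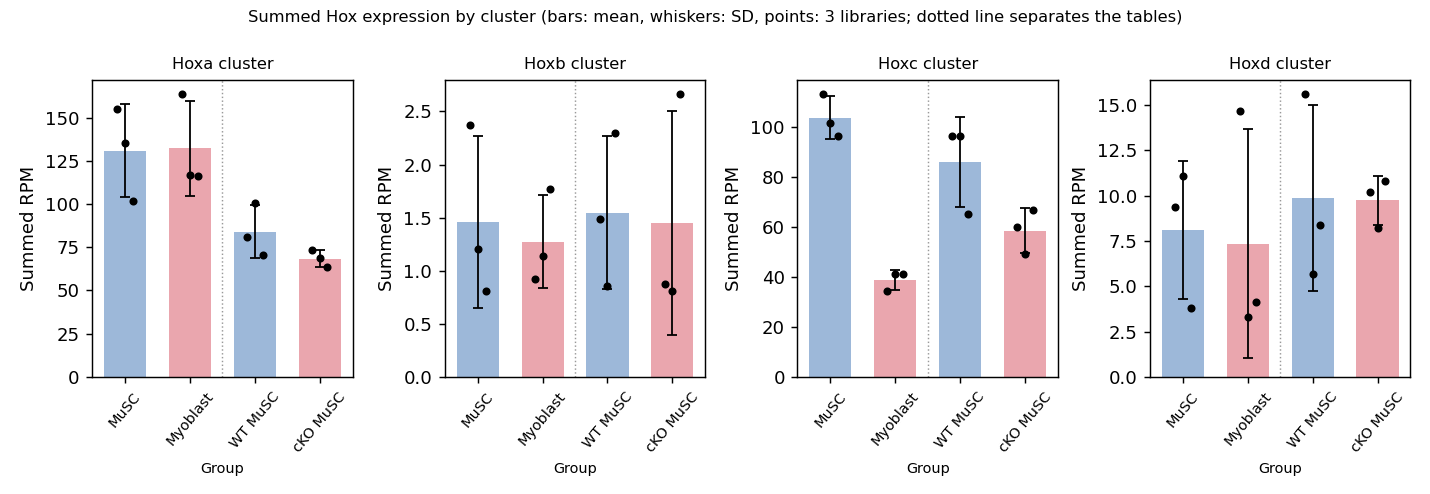
Summed RPM of the listed Hox genes of each cluster in the 4 groups, with bars for means, whiskers for SD, points for the 3 libraries and a dotted line between the culture table (left) and the genotype table (right). The Hoxc sum is 96.4 to 113.4 RPM in MuSC and 34.3 to 41.2 RPM in myoblast libraries, while the Hoxa points of these groups overlap.

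Genes that act with or upon Hox genes were taken from lists. TALE homeodomain proteins bind DNA as partners of HOX proteins, and 3 of the 9 were called between myoblasts and MuSCs, where 42.8% of all tested genes were. Meis1 was lower (32.4 to 4.61 RPM, log2 fold change -2.51), and Pknox2 (13.3 to 49.3 RPM, 1.83) and Pbx3 (2.57 to 7.81 RPM, 1.38) were higher (limma adjusted p at most 0.0168). The median of the list was -0.092.
Polycomb proteins keep Hox genes silent where they are not used, and 17 of 32 were called, 10 higher and 7 lower in myoblasts, with a median of 0.16, where 42.8% of all tested genes were called (22.2% higher and 20.6% lower). The largest changes were those of Cbx2 (log2 fold change 2.59), Phf1 (2.21), Pcgf3 (1.83), Jarid2 (-1.59) and Rbbp4 (1.54).
Of the 16 genes of Trithorax and MLL complexes and H3K27 demethylases, which keep Hox genes active, 4 were higher and 5 lower, with a median of -0.51, against the same share of all genes. Kdm6b (-1.44), Kmt2c (-1.44) and Setd1b (-1.14) were lower, and Rbbp5 (1.43) and Wdr5 (1.18) were higher.
Retinoic acid induces Hox genes in the embryo. Of 12 tested genes of its pathway and of other inducers, 5 were called, with a median of 0.36, again against 42.8% of all genes. The enzyme gene Aldh1a1 (15.9 to 0.279 RPM) and the receptor gene Rarb (13.5 to 0.153 RPM) were lower, and the receptor genes Rxrg (2.15 to 39.5 RPM) and Rara (13.9 to 30.3 RPM) were higher. Aldh1a2, listed at 0 in MuSCs and at 1.23 RPM in myoblasts, was called higher as well, but could pass the filter only through the myoblast libraries. Rarb, at most 0.171 RPM in any myoblast library, could in turn pass it only through the MuSC libraries. Aldh1a1, at 0.108 to 0.606 RPM in the myoblast libraries, also needed MuSC libraries to pass it. Cdx1, Cdx2 and Cdx4, direct inducers of Hox genes in the embryo, were not among the listed genes.

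Between Nedd4L-cKO and WT MuSCs, no Hox gene was called. At the limma adjusted p of 0.05, the count was 0 of 22 with the fit described and with each alternative, and 0.784% of all 15304 tested genes were called (0.523% higher and 0.261% lower). At an unadjusted p under 0.05, 3 Hox genes passed, all lower in Nedd4L-cKO MuSCs, where 14.6% of all genes passed (7.13% lower and 7.51% higher). Of the 22 genes, 16 had a log2 fold change below 0 (49.9% of all genes), and the median was -0.24, against 0.0015 over all genes. All 7 Hoxc genes were below 0 with a median of -0.57, of which Hoxc8 and Hoxc9 changed sign without Nedd4L-cKO replicate 02 (0.12) and without Nedd4L-cKO replicate 03 (0.090), respectively.

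**Figure D5:**
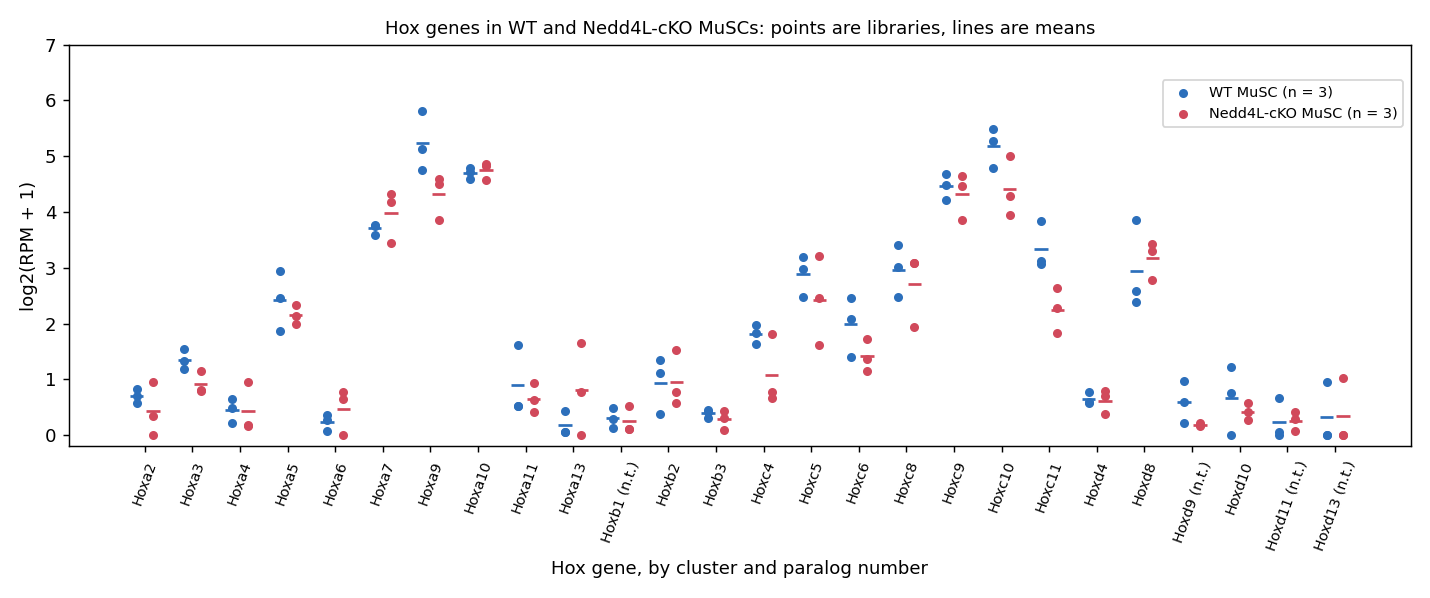
Level of listed Hox genes as log2(RPM + 1) in the 3 WT and 3 Nedd4L-cKO MuSC libraries, with points for libraries, lines for means and n.t. for genes that did not pass the filter. The points overlap for all tested genes except Hoxa3, Hoxa9 and Hoxc11, which are lower in Nedd4L-cKO MuSCs, and none passed the test.

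Of the 3 genes with an unadjusted p under 0.05, Hoxc11 had the largest log2 fold change on the log2(RPM + 1) scale. It was at 7.38, 13.3 and 7.67 RPM in WT replicates 01, 02 and 03 and at 3.84, 2.58 and 5.23 RPM in Nedd4L-cKO replicates 01, 02 and 03. The groups did not overlap, but the gene did not pass (log2 fold change -1.09, 95% interval -1.91 to -0.27, limma adjusted p = 0.215).
Hoxa9 was at 34.1, 55.1 and 26.0 RPM in WT and at 23.1, 13.5 and 21.6 RPM in Nedd4L-cKO MuSCs. The lowest WT library was just above the highest Nedd4L-cKO library (log2 fold change -0.92, 95% interval -1.65 to -0.19, limma adjusted p = 0.244).
Hoxc10 was at 43.7, 37.8 and 26.6 RPM in WT and at 14.4, 18.5 and 31.2 RPM in Nedd4L-cKO MuSCs. Here replicate 03 of Nedd4L-cKO was above replicate 03 of WT, and the groups overlapped (log2 fold change -0.77, limma adjusted p = 0.315).
Groups of 3 Hox genes did not overlap (Hoxa3, Hoxa9 and Hoxc11, all lower in Nedd4L-cKO), whereas 9.59% of all genes were lower and 9.75% higher in this way (19.3% together).

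Hoxa10 showed the least spread of the highly expressed genes, at 26.7, 23.1 and 25.4 RPM in WT and at 27.5, 28.2 and 22.8 RPM in Nedd4L-cKO MuSCs. The 95% interval of its log2 fold change of 0.06 ran from -0.51 to 0.62, which leaves out a doubling or a halving. Hoxc9 was at 24.7, 21.4 and 17.6 RPM in WT and at 23.9, 21.1 and 13.6 RPM in Nedd4L-cKO MuSCs (log2 fold change -0.14, 95% interval -0.80 to 0.52).
Hoxa11 and Hoxc5, both called between myoblasts and MuSCs, were not called between genotypes. Hoxa11 was at 2.07, 0.444 and 0.439 RPM in WT and at 0.330, 0.539 and 0.913 RPM in Nedd4L-cKO MuSCs, and the 95% interval of its log2 fold change ran from -0.94 to 0.47. Hoxc5 was at 8.16, 6.86 and 4.58 RPM in WT and at 8.31, 2.05 and 4.51 RPM in Nedd4L-cKO MuSCs, with an interval from -1.41 to 0.50.
Hoxa13 was at 0.0360, 0.0451 and 0.353 RPM in WT and at 0, 2.16 and 0.716 RPM in Nedd4L-cKO MuSCs, so that the spread among Nedd4L-cKO libraries exceeded the difference between the means.
Hoxc4 was at 2.11, 2.95 and 2.58 RPM in WT and at 0.704, 0.593 and 2.53 RPM in Nedd4L-cKO MuSCs. Only Nedd4L-cKO replicate 03 reached the WT range (log2 fold change -0.73, limma adjusted p = 0.394).
Hoxd8 was at 13.4, 5.02 and 4.25 RPM in WT and at 8.82, 5.89 and 9.78 RPM in Nedd4L-cKO MuSCs, and Hoxd10 at 0.684, 0 and 1.34 RPM and at 0.212, 0.494 and 0.330 RPM. Hoxb2 was at 1.15, 0.297 and 1.53 RPM in WT and at 0.715, 0.483 and 1.87 RPM in Nedd4L-cKO MuSCs. Each of these sets of libraries overlapped. Hoxb1, which was not tested, was at 0.0900, 0.225 and 0.400 RPM in WT and at 0.0849, 0.0781 and 0.440 RPM in Nedd4L-cKO MuSCs.
Hoxd9 did not pass the filter in this table, with 0.972, 0.158 and 0.518 RPM in WT and 0.127, 0.130 and 0.165 RPM in Nedd4L-cKO MuSCs. Hoxc13 was not listed here.
The other tested genes had mean levels in WT and Nedd4L-cKO MuSCs of 12.1 and 15.3 RPM (Hoxa7), 7.11 and 5.94 RPM (Hoxc8), 4.595 and 3.469 RPM (Hoxa5), 3.14 and 1.70 RPM (Hoxc6) and 1.56 and 0.894 RPM (Hoxa3). Means of Hoxa2, Hoxa4, Hoxa6, Hoxb3 and Hoxd4 were at most 0.635 RPM. Hoxb1, Hoxd9, Hoxd11 and Hoxd13 were listed but did not pass the filter, with no library above 1.04 RPM.

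The summed Hoxc level was 96.3, 96.5 and 65.2 RPM in WT and 59.9, 49.2 and 66.8 RPM in Nedd4L-cKO MuSCs. Nedd4L-cKO replicate 03 was above WT replicate 03, so the groups overlapped. The summed Hoxa level was 84.0 ± 15.3 RPM in WT and 68.4 ± 4.93 RPM in Nedd4L-cKO MuSCs (SD, n = 3). Over all listed Hox genes, the sum was 146.5 to 203.7 RPM in WT and 126.8 to 144.2 RPM in Nedd4L-cKO libraries, and paralogs 9 to 13 made up 73.3% (72.3% to 74.3%) of it in WT and 67.3% (at most 69.6%) in Nedd4L-cKO MuSCs. These sums were not tested.
No gene of the TALE, Polycomb, Trithorax and MLL or inducer lists was called between genotypes with limma, and at an unadjusted p under 0.05 there were 4 of 9, 3 of 32, 2 of 16 and 4 of 12, where 14.6% of all genes passed. Fibro-adipogenic progenitor genes summed to 1067 to 2276 RPM in WT and 759.5 to 2749 RPM in Nedd4L-cKO libraries, and 3 tenocyte genes to 75.95 to 528.8 RPM and 142.3 to 666.5 RPM. Both ranges overlapped between genotypes. Those of 4 mural cell genes (1095 to 1771 and 2044 to 3005 RPM) and of 6 myofiber genes (161.5 to 345 and 399 to 494.6 RPM) did not overlap, although none of these genes was called. At an unadjusted limma p under 0.05 there were 3 of the 4 mural and 4 of the 6 myofiber genes, and 2 of 3 Schwann cell genes, whose sums overlapped. In the MuSC list, whose sums overlapped (5736 to 9599 and 5110 to 8358 RPM), Cd34 alone was called, lower in Nedd4L-cKO MuSCs. Among genes of activated or differentiating myoblasts, Ccnb1 alone was called, higher in Nedd4L-cKO MuSCs (17.9 to 75.4 RPM), and the sums overlapped (312.2 to 1146 and 594 to 1067 RPM). The part of these genes in the Hox values was not tested.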

How the data were processed

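RNA was measured with SMART-seq in 12 libraries of 1000 cells, 3 in each of 4 groups, and libraries were assigned to groups by their labels. The authors quantified transcripts with Kallisto 0.46.1 (single-end mode, fragment length 200, SD 20) on GENCODE M28 basic, summed them to genes with tximport and normalized them with DESeq2. The deposited values are a signal, the normalized counts of the authors, in 1 table per comparison. Reads were not recovered from them, so the depth, and with it counting error, is unknown. The authors' own fold changes, standard errors and p-values in both tables and 18 further columns of per-sample values in the genotype table (RPM and repeated counts) were not used.

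Hox genes were found by symbol, and 1 of them is counted but not reported here. The members and the gene lists were chosen with earlier results of these data known, so no test was made over the members and nothing is adjusted over the list alone. RPM were normalized counts divided by the mean of the 6 library totals of a table and multiplied by 1000000. Groups were compared by limma 3.58.1 (run in R 4.3.3) on log2(RPM + 1) with a pseudocount of 1 RPM (lmFit, eBayes with trend and robust moderation, group as the only term), on genes reaching 10 normalized counts in 3 or more libraries, with Benjamini-Hochberg adjustment over all tested genes. It was tested on simulated data. Every tested Hox gene was named, with values by library where it was called or was 1 of the 2 highest of its cluster, and some others beside them. Genes of the TALE, Polycomb, Trithorax and MLL, inducer, limb and neighbour lists were named when called, at most 5 per list. Of the cell type marker lists, only some of the called genes were named.

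Replicate numbers pair the culture libraries, because the series' design says that the myoblasts were grown from the same mice as the MuSCs, and both libraries of a number carry the same number in their labels. Deviations from the group means of the same mouse correlated at -0.0314, -0.00502 and 0.0180 across genes. Alternatives were a replicate block, other pseudocounts, filters, scalings and thresholds, and each library left out in turn. Positions and exon lengths came from GENCODE M39 on GRCm39, a later release than the authors used on the same build, and promoter sequences from RefSeq on GRCm38.p6. Python 3.11.15 with pandas 2.3.3 and matplotlib 3.10.9 was used for annotation and plots. In the culture comparison, the labels of MuSC replicates 04 and 06 and of myoblast replicate 04 carry an added digit that the other labels of their groups lack. Its meaning is not given. No label names a batch or date, and no batch could be examined.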

Additional observations from a re-analysis of the deposited data

How the results depend on the processing

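Of 335 alternative values of the 22 Hox genes between myoblasts and MuSCs, 300 kept their direction and their side of the threshold, 24 lost the call, 1 gained it (Hoxd8) and 10 changed sign. Hoxa11, Hoxa13, Hoxc5, Hoxc9, Hoxc10 and Hoxc11 were called in every alternative that could be fitted (for Hoxa13, which could be tested only through the myoblasts, 11 of them), the highest limma adjusted p being 0.0478. Hoxa9, Hoxc4, Hoxc13 and Hoxd9 were not, as given with their values above. Without 1 myoblast library, Hoxa13 and Hoxc13 did not pass the filter and could not be tested, and when all 6 libraries had to reach 10 normalized counts 1 gene was called higher in place of 4. Leaving out each library in turn gave 5 to 8 called Hox genes, 1 to 2 of them higher. With a further requirement of a log2 fold change beyond 1 in size and of 5 RPM or more on average, there were 5 called genes, 1 of them higher. Scaling each library to its own total moved the median of all genes from 0.039 to 0.14 and the share of higher calls over all genes from 51.8% to 58.8%, and left 4 Hox genes higher and 5 lower. When mouse entered as a replicate block, 9 Hox genes were called (4 higher, 5 lower), and only the call of Hoxc4 changed.

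Changes of sign between myoblasts and MuSCs came only from leaving out 1 library and touched genes near 0, with ranges of the log2 fold change of -0.071 to 0.26 for Hoxa10, -0.70 to 0.082 for Hoxa2, -0.31 to 0.11 for Hoxb2, -0.36 to 0.046 for Hoxa3 and -0.15 to 0.14 for Hoxd4. Between genotypes, 315 of 329 alternative values kept direction and side, 14 changed sign and none was called. Own-total scaling, which moved the median of all genes from 0.0015 to -0.092, moved the share of higher calls over all genes from 66.7% to 56% and gave -0.070 for Hoxa10 and -0.023 for Hoxb2. Leaving out 1 library gave ranges of -0.00019 to 0.15 for Hoxa10, -0.13 to 0.11 for Hoxa4, -0.51 to 0.12 for Hoxc8, -0.049 to 0.68 for Hoxd8, -0.30 to 0.090 for Hoxc9, -0.42 to 0.13 for Hoxa11, -0.57 to 0.047 for Hoxd10, -0.27 to 0.22 for Hoxb2 and -0.11 to 0.092 for Hoxd4. Replicate numbers of the genotype table mark different mice (correlations 0.0192, -0.0232 and -0.181), and a replicate block on them left 0 Hox genes called and 76 of all genes in place of 120. Over all settings, 21 to 227 of all genes were called between genotypes, the fewest without Nedd4L-cKO replicate 02.

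Cluster sums were also taken without the highest gene of each group, which for Hoxa was not the same gene throughout. Without Hoxa9, the Hoxa sum was 63.65 RPM in MuSCs and 45.63 RPM in WT MuSCs of the genotype table, and without Hoxa10 it was 94.29 RPM in myoblasts and 42.25 RPM in Nedd4L-cKO MuSCs, so these are not to be compared between groups. Without Hoxc10, the Hoxc sum was 67.9 RPM in MuSCs, 25.31 in myoblasts, 50.01 in WT and 37.27 in Nedd4L-cKO MuSCs of the genotype table. Without Hoxb2, the Hoxb sum was 0.2015, 0.2188, 0.5527 and 0.4242 RPM in the same order. Without Hoxd8, the Hoxd sum was 0.9619, 2.793, 2.318 and 1.586 RPM, higher in myoblasts than in MuSCs where the full sums were 7.35 and 8.09 RPM. The causes of these changes were not tested beyond the construction of each alternative.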

Other observations

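The genes beside the clusters moved in both directions. Of 17 tested neighbours with other names, 4 were higher and 3 lower in myoblasts than in MuSCs (limma adjusted p of at most 0.05), where 22.2% of all tested genes were higher and 20.6% lower, and the median log2 fold change was -0.063. Skap2, which flanks Hoxa, went from 11.5 to 32.7 RPM (log2 fold change 1.45), and Snx11 beside Hoxb from 14.1 to 40.0 RPM (1.43). Skap1, also beside Hoxb and counted among the higher genes, was listed at 0 in MuSCs and was at 3.57 RPM in myoblasts, so it could pass the filter only through the latter. Near Hoxc, whose own genes were mostly lower, Cbx5 went from 305.8 to 483.1 RPM (0.66) and Copz1 from 275.4 to 152.3 RPM (-0.85). No neighbour was called between genotypes with limma, where 4 of 16 had an unadjusted p under 0.05, against 14.6% of all genes.

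Limb identity genes were read against the hindlimb source of the cells. Tbx4, a hindlimb gene, was at 14.98 ± 3.286 RPM in MuSCs and 8.74 ± 2.72 RPM in myoblasts (SD, n = 3, log2 fold change -0.74, limma adjusted p = 0.107). Tbx5, its forelimb counterpart, was not listed in the culture table and was at 0.172 RPM in WT MuSCs of the genotype table, where Tbx4 was at 8.25 RPM. Pitx1, which acts upstream of Tbx4 in the embryo, was at 0.116 RPM there. Of the 5 tested genes of this list, En1 alone was called, from 21.3 to 3.64 RPM (log2 fold change -2.27, limma adjusted p = 0.000664). Of all tested genes, 42.8% were called between myoblasts and MuSCs, 20.6% of them all as lower.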
